A study of Homo sapiens with 24 samples.

Results

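Hypoxia and glycolysis genes were followed in L1236, an established Hodgkin lymphoma (HL) cell line of B cell origin, after depletion of NF-κB subunits. The genes were listed by name, as genes that low oxygen induces or that code for the steps and regulators of glycolysis, with earlier results of these data known. The list held 51 genes, of which 48 had a transcript cluster (the probe set for 1 transcript locus) that carries their symbol alone, out of 18417 genes with such a cluster on the array. Of these 48, 47 were measured in the p52/RelB experiment and 45 in the p50/RelA experiment, and the 45 were measured in both. A gene counted as measured where over 6 of the 12 arrays of an experiment were at 6 or more on the log2 scale. LOX, a collagen cross-linking enzyme, failed this in both experiments, with 2 arrays at 6 or more in the p52/RelB experiment and 0 in the p50/RelA experiment, and STC2 and VLDLR met it only in the p52/RelB experiment. PGAM1 shared its clusters with a second gene and was not analysed here, nor were CA9 and SLC16A3.

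When oxygen is scarce, the prolyl hydroxylases (EGLN proteins) no longer mark HIF-1α for destruction, and HIF-1α with its partner ARNT binds short hypoxia response elements to switch on genes of glucose uptake, glycolysis, mitophagy, oxygen delivery and collagen modification. HIF-1α is controlled mainly through the stability of the protein, so its mRNA need not follow its activity, and NF-κB is one of the factors known to act on the HIF1A promoter. Many glycolytic enzymes are also made at a high basal level by proliferating tumour cells, which turn glucose into lactate even where oxygen is present.

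The study hybridised RNA to 24 arrays (Affymetrix Human Gene 1.0 ST) in 2 separate experiments. In the p52/RelB knockdown (KD), cells received siRNA, a short RNA that directs the decay of a matching mRNA, against RELB at 1 µM for 3 days and against NFKB2, which codes for p100 and its product p52, at 500 nM for 2 days. They were set against 6 arrays of control siRNA (control 2). In the p50/RelA KD, siRNA against NFKB1, which codes for p105 and its product p50, was given at 1 µM for 3 days and siRNA against RELA at 500 nM for 2 days, with 6 arrays of control siRNA (control 1) beside them. The siRNA of the shorter treatment was added to cells that already held the other one, all arms were treated in low-serum delivery medium and harvested 1 day after normal medium was restored, and each arm held 2 siRNA sequences in each of 3 replicates. The study calls the replicates biological and does not say how their cultures were kept apart, so p-values describe the spread between these arrays of 1 cell line, part of which may be technical.

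The siRNAs of the p52/RelB KD are printed because the falls described below were measured with them. The study lists 2 for each target, without tying either to sequence 1 or 2 of the labels, and does not say which strand is given.
NFKB2 siRNA: ucauugagcagauagucua
NFKB2 siRNA: cugucaagaucuguaacua
RELB siRNA: guaggauucggaaaagauu
RELB siRNA: uggagaucaucgacgagua

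Promoters of members were searched for ACGTG and GCGTG, the 2 forms of the core of a hypoxia response element, on both strands, in RefSeq windows that lie mostly upstream of each transcription start (GRCh38.p14). The windows matched 46 of the 51 genes, with 85 promoters, and HILPDA, BNIP3L, NDRG1, SLC2A3 and VEGFA had none. ACGTG was found in 62.2% of the 45 promoters of members that fell in p52/RelB KD, in 26.7% of the 30 promoters of members tested there that did not pass, and in 21.4% of all 35116 promoters. GCGTG was found in 55.6%, 43.3% and 36.5% of the same sets. The κB consensus, the motif of NF-κB, was found in 3 of the 45, in 6 of the 30 and in 11.3% of all. The mean G+C content differed too, at 68.0%, 63.0% and 57.5%, and its part in the motif counts was not tested. Genes can have several promoters, and HK1 and PFKM held 7 each of the 30. The motifs were also counted by gene, with at least 1 promoter holding the motif. ACGTG was found in 82.8% of 29 genes that fell, 46.2% of 13 that did not pass and 24.9% of all genes. GCGTG was found in 69.0%, 69.2% and 40.6%, and the κB consensus in 10.3%, 38.5% and 13.3%. A match is a description of these letters in the window, not of a bound site. The study mapped where p50, p52, RelA and RelB bind in L1236 cells by ChIP-seq, the sequencing of DNA bound by a protein. Many of its regions lay inside genes, outside such windows. Those data were not used here, so a window without the κB consensus does not show that a gene is unbound. The stretches below hold ACGTG upstream of the start in members that the results turn on, in the glycolytic enzyme genes LDHA and PGK1, and in GAPDH, which held the motif and did not pass the test. PFKFB4, KDM3A, P4HA2, PFKL and PKM, which fell, held no ACGTG in this window, and no stretch is shown for them. Where a gene had several promoters, the one with the most ACGTG matches is shown. PDK1, PFKFB3 and LDHA each had another promoter without it. Capitals mark matches to either form on either strand.
DDIT4, chr10:72273787-72273815, plus strand: agaacgttgcttACGTGcgcccggagtcc
BNIP3, chr10:131982011-131982069, minus strand: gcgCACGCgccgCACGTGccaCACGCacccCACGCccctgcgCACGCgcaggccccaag
PDK1, chr2:172556061-172556089, plus strand: cctgctgcccgcCACGTccctCACGTacc
INSIG2, chr2:118088364-118088392, plus strand: ggctcgcaggtcCACGTcttattgacagc
P4HA1, chr10:73096936-73096964, minus strand: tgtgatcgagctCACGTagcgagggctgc
PFKFB3, chr10:6202812-6202841, plus strand: caccctcctcccCACGTGgaagggggctgg
GBE1, chr3:81761741-81761769, minus strand: tacccgctccggACGTGcgtcccggcatc
BHLHE40, chr3:4979187-4979209, plus strand: tccaaCACGTGagactcatgtga
LDHA, chr11:18394464-18394506, plus strand: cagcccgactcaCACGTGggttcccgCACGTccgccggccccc
PGK1, chrX:78104034-78104081, plus strand: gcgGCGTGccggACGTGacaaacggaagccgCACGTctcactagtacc
GAPDH, chr12:6535171-6535200, plus strand: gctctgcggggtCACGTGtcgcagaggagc

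The values are log2 and came from RMA, so a difference of 1 is a change of about 2-fold that RMA tends to understate, and levels were compared only within a gene and an experiment. The mRNA of NFKB2 was 39.4% of control 2 and that of RELB 82.0% in p52/RelB KD. NFKB1 was 26.5% of control 1 and RELA 38.1% in p50/RelA KD, so the mRNA of RELB fell least of the 4 targets. The study showed the depletion of the subunit proteins by western blot, which these arrays do not measure. NFKB1 was higher by 0.15 in p52/RelB KD and NFKB2 lower by 0.19 in p50/RelA KD, and both passed the test. The p52/RelB KD array of sequence 2 in replicate 3 stood apart from its arm, with a mean correlation of 0.986 where the other arrays of the series had 0.993 to 0.997. TNFRSF8, which codes for the HL surface marker CD30, lay between 8.93 and 9.35 on all arrays. Of the 7 Hodgkin cell markers, CD40 (-0.29) and TRAF1 (-0.23) passed downward in p52/RelB KD and CCL17 and CD40 in p50/RelA KD. The summed level of these 7 lay between 13.40 and 13.52 in p52/RelB KD against 13.55 to 13.68 in control 2. CD22, a B cell gene, was lower by 0.30 in p52/RelB KD. Of the markers of T and NK cells, myeloid cells and fibroblasts, endothelium or epithelium, PECAM1 alone passed the test, upward in p52/RelB KD. The summed level of the T and NK list lay between 9.63 and 10.12 in p52/RelB KD against 9.56 to 9.70 in control 2, that of the myeloid list between 9.06 and 9.30 against 9.03 to 9.20, and that of the fibroblast, endothelial and epithelial list between 12.40 and 12.60 against 12.25 to 12.40. The part of these levels in the results was not tested.

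After p52/RelB KD the hypoxia and glycolysis genes fell together. Of the 47 members, 32 passed the test downward, 0 upward and 15 did not pass, while 5.75% of all 16101 clusters tested passed downward and 3.93% upward. A member passed at an adjusted p below 0.05 (limma, Benjamini-Hochberg over all clusters) with a difference of at least 10%. The median difference was -0.29 over the members and 0.02 over all clusters, and 11 members were more than 1.5-fold lower, among 62 clusters on the array that were. In each of the 3 replicates both KD arrays lay below both control arrays for 33 of the 47 members, against 7.78% of all clusters. These were the called members except ANKRD37, with HK1 and CITED2 in addition. Fewer cells that express a gene and less RNA per cell cannot be told apart in these bulk samples. Without the array of sequence 2 in replicate 3, 33 members passed downward. The count was 20 without replicate 1 and 20 without the replicate as a block.

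**Figure D1:**
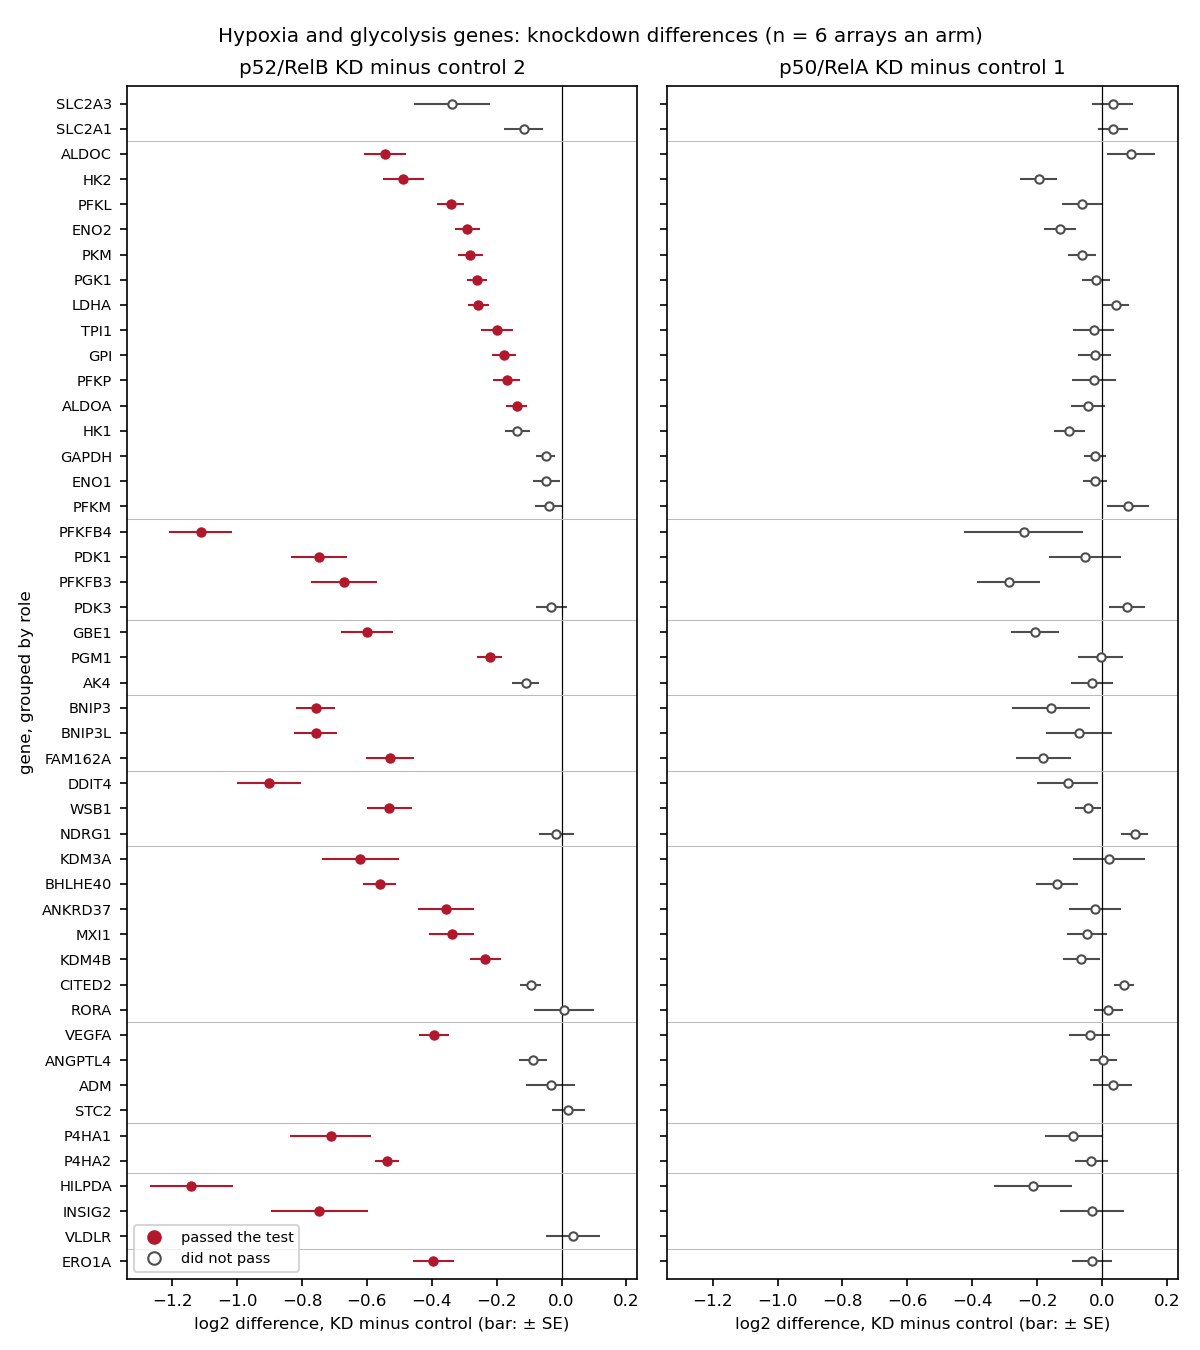
Log2 difference (KD minus control, ± SE) of each measured gene, grouped by role, in p52/RelB KD (left) and p50/RelA KD (right), with 6 arrays in each arm. Filled points passed the test: 32 in p52/RelB KD, all to the left of 0, and 0 in p50/RelA KD.

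Of the 4 regulators of glycolytic flux, 3 fell, with a median difference of -0.71 over the 4. PFKFB4, a bifunctional enzyme that sets the level of fructose 2,6-bisphosphate, the activator of phosphofructokinase, had a lowest, median and highest value of 7.72, 8.38 and 9.02 in p52/RelB KD, against 9.07, 9.40 and 10.06 in control 2. The arms did not overlap, and the difference was -1.11 ± 0.10 (SE, adjusted p = 3.01e-05), or 46.3% of control. PFKFB3, its paralog with high kinase activity, had 7.84, 8.01 and 8.48 in p52/RelB KD, against 8.24, 8.63 and 9.57 in control 2. Here the arms overlapped, with KD arrays of replicate 1 (mean 8.47) above control arrays of replicate 3 (mean 8.35), and the difference within replicates was -0.67 ± 0.10 (adjusted p = 0.00128). PDK1, a kinase that inactivates pyruvate dehydrogenase and so keeps pyruvate from the mitochondria, had 9.59, 10.04 and 10.28 in p52/RelB KD, against 10.47, 10.79 and 11.06 in control 2. These arms were apart as well, by -0.75 ± 0.09 (adjusted p = 0.000185). PDK3, another kinase of the same family, did not pass (-0.03 ± 0.05, adjusted p = 0.732).

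Among the glycolytic enzymes, 11 of 15 fell and the other 4 did not pass, with a median difference of -0.20, smaller in size than that of the flux regulators. The largest differences were those of ALDOC, an aldolase (-0.54 ± 0.06), and HK2, the hexokinase known for induction by HIF-1 (-0.49 ± 0.06). PFKL and PFKP, forms of phosphofructokinase, differed by -0.34 ± 0.04 and -0.17 ± 0.04. ENO2 (-0.29 ± 0.04), PKM (-0.28 ± 0.04), PGK1 (-0.26 ± 0.03) and LDHA (-0.26 ± 0.03), which makes lactate, fell by similar amounts. TPI1, GPI and ALDOA fell by 0.20, 0.18 and 0.14, and 3 of the 4 enzymes that did not pass, GAPDH, ENO1 and PFKM, had differences of -0.05, -0.05 and -0.04. The fourth, HK1, had an adjusted p of 0.0392 and a difference of -0.136, just short of the 10% limit (-0.138), and ALDOA lay just past it at -0.139. The glucose transporters did not pass, with -0.34 ± 0.12 for SLC2A3 (adjusted p = 0.0972) and -0.12 ± 0.06 for SLC2A1 (adjusted p = 0.272).

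Of the genes for glycogen and nucleotide metabolism, GBE1, the glycogen branching enzyme, had a lowest, median and highest value of 8.17, 8.77 and 8.98 in p52/RelB KD, against 9.16, 9.25 and 9.52 in control 2. The arms did not overlap, with a difference of -0.60 ± 0.08 (adjusted p = 0.000547) and the lowest value on the array that stood apart. PGM1, which interconverts glucose phosphates, fell by 0.22, and AK4, a mitochondrial adenylate kinase, did not pass (-0.11 ± 0.04, adjusted p = 0.116).

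The 3 mitochondrial members all fell. BNIP3, a receptor on the outer mitochondrial membrane that marks mitochondria for mitophagy, had 11.10, 11.41 and 11.73 in p52/RelB KD, against 11.94, 12.17 and 12.48 in control 2. Its homolog BNIP3L, which clears mitochondria from maturing red cells, had 10.53, 10.82 and 11.08 in p52/RelB KD, against 11.35, 11.57 and 11.72 in control 2. For neither gene did the arms overlap, and each differed by -0.76 (SE 0.06 for BNIP3 and 0.07 for BNIP3L), which is 59.1% of control. FAM162A, a mitochondrial protein that promotes cell death in hypoxia, fell by 0.53.

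DDIT4 (REDD1), which inhibits mTORC1 under stress, had a lowest, median and highest value of 7.74, 8.02 and 8.73 in p52/RelB KD, against 8.40, 8.99 and 9.76 in control 2. The arms overlapped over all replicates, yet both KD arrays lay below both control arrays in each of them, and the difference was -0.90 ± 0.10 (adjusted p = 0.000137). WSB1, part of a ubiquitin ligase, fell by 0.53, whereas NDRG1, a classic hypoxia marker, did not pass (-0.02 ± 0.05, adjusted p = 0.886).

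Of the 7 transcription and chromatin members, 5 fell. KDM3A, a demethylase of histone H3 lysine 9, had 8.17, 8.69 and 9.09 in p52/RelB KD, against 8.79, 9.30 and 9.90 in control 2. Its arms overlapped and its difference was -0.62 ± 0.12 (adjusted p = 0.00551). BHLHE40 (DEC1), a transcriptional repressor, had 10.33, 10.44 and 10.72 in p52/RelB KD, against 10.80, 11.01 and 11.38 in control 2. There was no overlap for this gene, with a difference of -0.56 ± 0.05 (adjusted p = 4e-05). ANKRD37, MXI1, an antagonist of MYC, and KDM4B, another histone demethylase, fell by 0.36, 0.34 and 0.23. CITED2, which competes with HIF-1α for the coactivators EP300 and CREBBP, and RORA, a nuclear receptor, did not pass (-0.10 ± 0.03 and 0.01 ± 0.09).

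P4HA1 and P4HA2, the catalytic subunits of the enzyme that hydroxylates proline in collagen, both fell. P4HA1 had a lowest, median and highest value of 8.74, 9.80 and 10.08 in p52/RelB KD, against 10.02, 10.37 and 10.69 in control 2. The arms overlapped slightly, the lowest value was again that of the array that stood apart, and the difference was -0.71 ± 0.12 (adjusted p = 0.00328). P4HA2 differed by -0.54 ± 0.04 and had the lowest adjusted p of the members (5.79e-06). Of the secreted factors, VEGFA, which drives vessel growth, fell by 0.39, while ANGPTL4 (-0.09 ± 0.04), ADM (-0.03 ± 0.08) and STC2 (0.02 ± 0.05) did not pass. ERO1A, the oxidase that forms disulfide bonds in the endoplasmic reticulum, fell by 0.40.

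HILPDA, which inhibits the lipase ATGL and so preserves lipid droplets in hypoxia, had the largest difference of the members. Its values were 9.69, 10.12 and 11.03 in p52/RelB KD, against 10.50, 11.39 and 12.26 in control 2. They overlapped over all replicates and not within a replicate, with a difference of -1.14 ± 0.13 (adjusted p = 0.000171), or 45.3% of control. INSIG2, which holds the SREBP activation complex in the endoplasmic reticulum and thereby restrains sterol synthesis, had 7.42, 8.09 and 8.66 in p52/RelB KD, against 8.004, 8.71 and 9.63 in control 2. Its difference was -0.75 ± 0.15 (adjusted p = 0.00721), and its arms overlapped as well. VLDLR, a lipoprotein receptor, did not pass (0.03 ± 0.08). INSIG2, P4HA1 and KDM3A no longer passed without replicate 1 (adjusted p = 0.175, 0.0712 and 0.159), and INSIG2, PFKFB3 and KDM3A did not without the replicate as a block (adjusted p = 0.17, 0.0884 and 0.099).

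**Figure D2:**
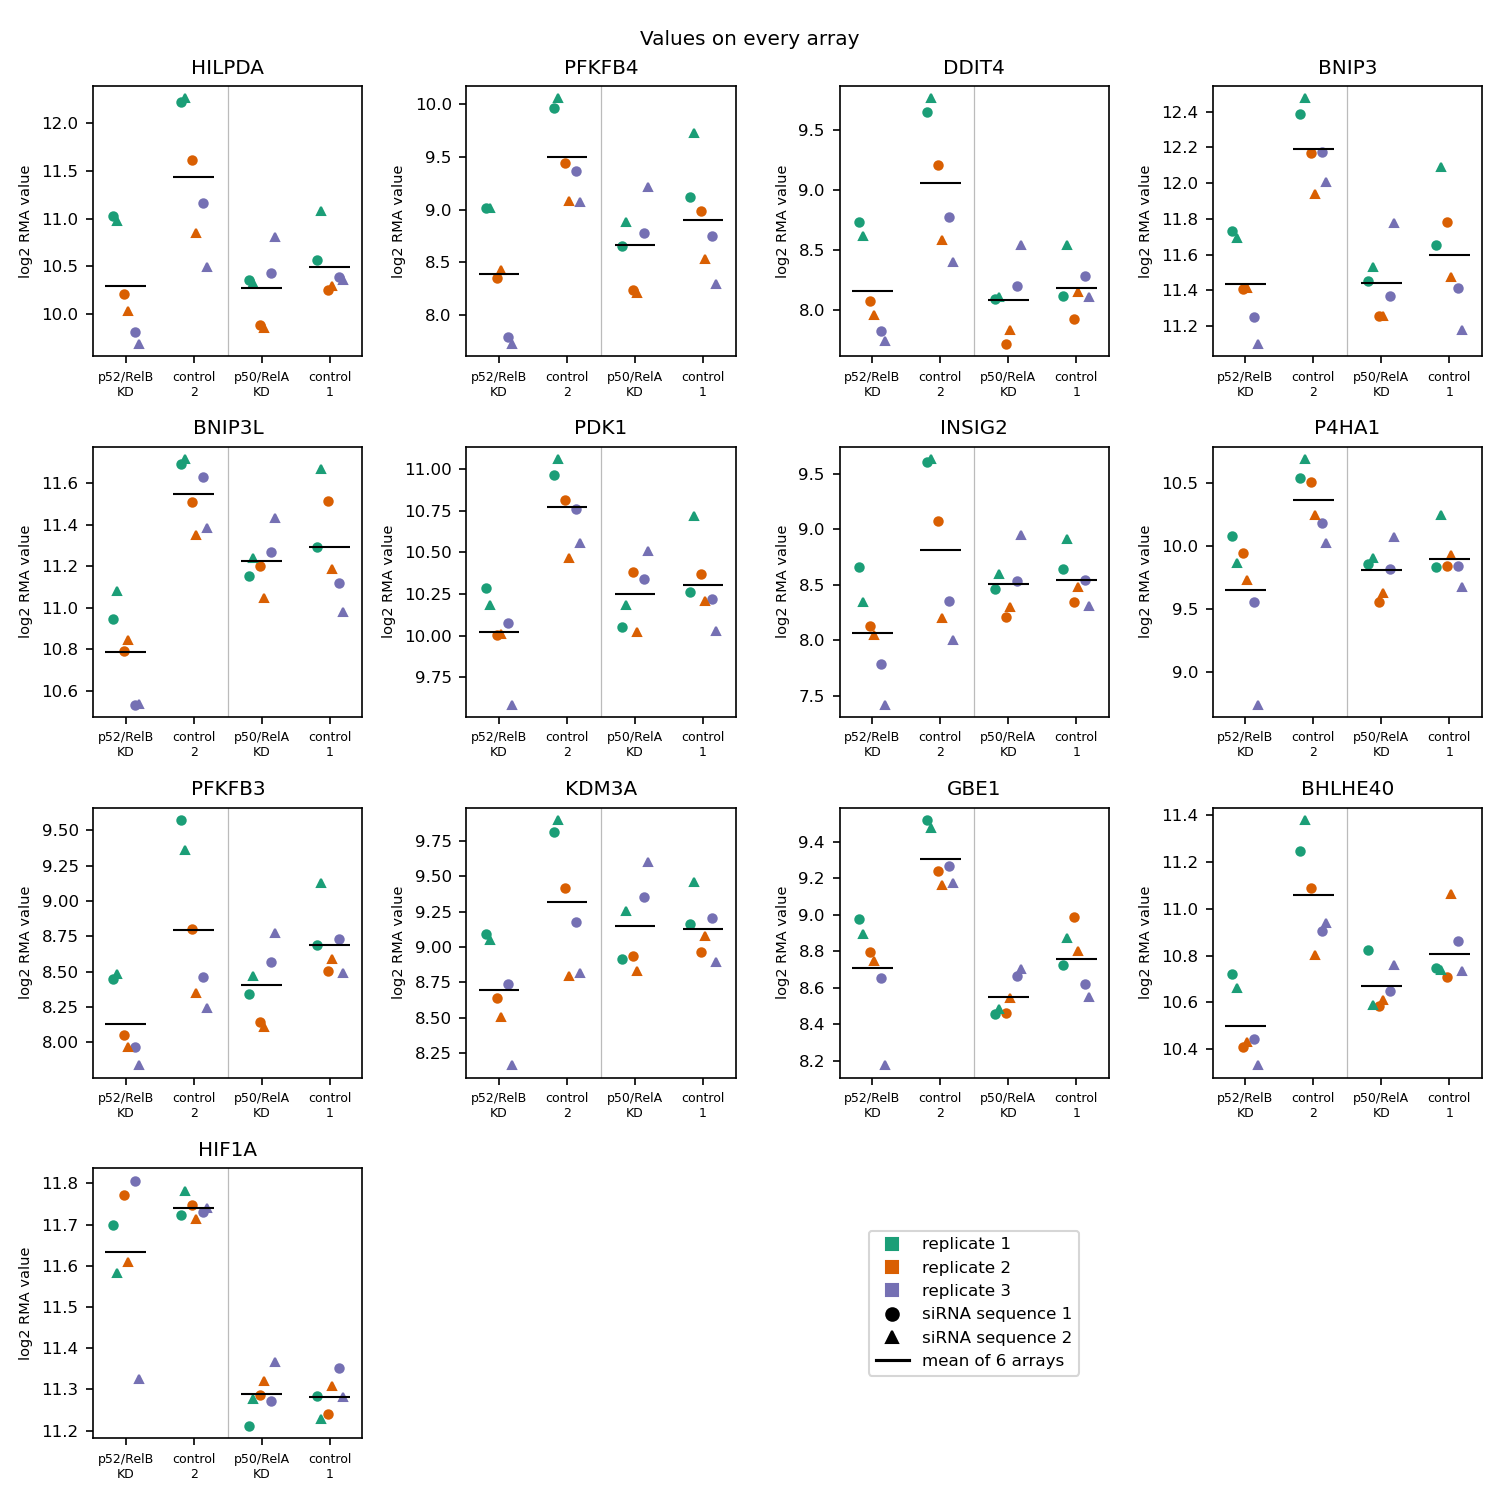
Log2 RMA values of the 12 members with the largest p52/RelB KD difference and of HIF1A on every array, with the KD left of its control, colours for the 3 replicates, symbols for the 2 siRNA sequences and a line for the mean of 6 arrays. For PFKFB4, BNIP3, BNIP3L, PDK1, GBE1 and BHLHE40 the p52/RelB KD and control 2 arrays do not overlap, and for most genes the arrays of replicate 1 are the highest of control 2.

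The mRNA of HIF1A itself did not pass in p52/RelB KD. Its lowest, median and highest values were 11.32, 11.65 and 11.81 in p52/RelB KD, against 11.71, 11.74 and 11.78 in control 2, and the difference was -0.11 ± 0.07 (adjusted p = 0.402). The KD arrays of sequence 1 lay at 11.70, 11.77 and 11.81 and those of sequence 2 at 11.58, 11.61 and 11.32. In p50/RelA KD the values were 11.21, 11.28 and 11.37, against 11.23, 11.28 and 11.35 in control 1, with full overlap. Among all 15 measured genes for HIF subunits, oxygen sensors and the VHL complex, 1 fell and 1 rose in p52/RelB KD. EPAS1, which codes for HIF-2α, had 10.44, 10.50 and 10.60 in p52/RelB KD, against 10.10, 10.15 and 10.27 in control 2, and rose by 0.36 ± 0.03 (adjusted p = 3.55e-05) with no overlap. EGLN3, an oxygen sensor that is itself a HIF target, fell by 0.24 (adjusted p = 0.0231). The median difference of these 15 genes was -0.025.

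Other genes reported as HIF targets, listed apart from the 47, moved in the same direction less far. Of 16 measured, 9 fell in p52/RelB KD and 0 rose, with a median difference of -0.16. TMEM45A, a membrane protein, differed by -0.85 ± 0.09, HMOX1, which degrades heme, by -0.46 ± 0.07, NARF by -0.42 ± 0.05 and CXCR4, the receptor of the chemokine CXCL12, by -0.40 ± 0.07. The remaining falls, those of EGLN3, PPFIA4, KDM4C, CCNG2 and GYS1, were between 0.24 and 0.15. Isozymes of glycolysis that are not on the list of members had a median difference of 0.05. Of 14 measured, ENO3 fell by 0.23 and PDP1, the phosphatase that opposes the PDK enzymes, rose by 0.15. PFKFB1 and PDK4 of this list were measured in the p52/RelB experiment alone, and the part of expression level in this count was not tested. None of the 6 measured genes of the pentose phosphate pathway passed, with -0.17 ± 0.06 for RPE and 0.13 ± 0.05 for TALDO1 as the largest differences in each direction, and none of the 20 for pyruvate dehydrogenase and the citric acid cycle did. Their medians were -0.05 and 0.03. HPRT1, TBP, B2M, YWHAZ and SDHA, common reference genes of RT-qPCR, did not pass either, with differences between -0.16 and 0.03.

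Both siRNA sequences of the p52/RelB KD gave these falls. The median member difference was -0.28 with sequence 1 and -0.31 with sequence 2, with 44 and 43 of the 47 members below control. By replicate the median was -0.33, -0.28 and -0.26, with 47, 46 and 40 members below control in replicates 1, 2 and 3. When sequence 1 was set against sequence 2 among the KD arrays, 0 members passed (lowest adjusted p = 0.506) and 3 had an unadjusted p below 0.05, against 0 and 1536 of all 16101 clusters. The 2 control siRNA sequences were compared in the same way among the control 2 arrays. There 0 members passed and 7 had an unadjusted p below 0.05 (limma), against 0 and 160 of all 16101 clusters. Of the 47 members, 8 were lower with control sequence 1 than with control sequence 2. The KD difference varied between replicates for 0 members at an adjusted p below 0.05, and 6 members had an unadjusted p below 0.05, against 4.48% of all clusters.

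After p50/RelA KD none of the 45 members passed in either direction (limma, lowest adjusted p = 0.162), against 0.825% of all 14672 clusters downward and 0.245% upward. At an unadjusted p below 0.05 there were 6 members of 45, against 10.5% of all clusters. The median difference was -0.03 over the members and 0.00 (0.0012) over all clusters. The largest differences were -0.29 ± 0.10 for PFKFB3 (adjusted p = 0.252), -0.24 ± 0.18 for PFKFB4, -0.21 ± 0.12 for HILPDA, -0.21 ± 0.07 for GBE1 and -0.20 ± 0.06 for HK2. No member had both KD arrays below both control arrays in every replicate, against 2.17% of all clusters, and CITED2 alone had them above (0.07 ± 0.03, adjusted p = 0.445). Without replicate 3, GBE1 passed downward (-0.36, adjusted p = 0.0376) and no other member did. None of the genes in the lists of HIF subunits and sensors, other HIF targets, other isozymes, pentose phosphate or citric acid cycle genes passed.

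The member differences had opposite signs in different replicates for most members. The median member difference was -0.14 in replicate 1, -0.11 in replicate 2 and 0.12 in replicate 3, where the medians over all clusters were 0.00 (0.0049), -0.01 and 0.00 (0.0003). In replicate 1, 43 of the 45 members lay below control, in replicate 2, 33 did, and in replicate 3, 2 did. Altogether 31 members lay below control in replicates 1 and 2 but above it in replicate 3, a pattern that 12.5% of all clusters had. Both siRNA sequences took part, with median differences of -0.18 and -0.11 for sequences 1 and 2 in replicate 1, -0.09 and -0.10 in replicate 2 and 0.07 and 0.17 in replicate 3. The range of the difference over the 3 replicates had a median of 0.28 for the members and 0.15 for all clusters. As a test of each gene, the KD difference varied between replicates at an unadjusted p below 0.05 for 15 members, against 5.53% of all clusters, and for 0 members after adjustment (limma, lowest adjusted p = 0.839). Each replicate of this experiment was scanned as its own batch, so replicate and batch cannot be told apart.

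PFKFB4 had the widest range. Its KD arrays lay at 8.65 and 8.89 (sequences 1 and 2) against 9.12 and 9.73 in control 1 in replicate 1, and at 8.23 and 8.21 against 8.99 and 8.53 in replicate 2. In replicate 3 the KD arrays lay at 8.78 and 9.21, above both control arrays at 8.75 and 8.29. The differences were thus -0.66, -0.54 and 0.47. HILPDA had a lowest, median and highest value of 9.86, 10.34 and 10.81 in p50/RelA KD, against 10.25, 10.37 and 11.08 in control 1, and PDK1 had 10.02, 10.26 and 10.51 against 10.03, 10.24 and 10.72. Over all replicates the arms of both genes overlapped. HILPDA differed by -0.48, -0.40 and 0.25, PDK1 by -0.37, -0.08 and 0.30 and BNIP3 by -0.38, -0.37 and 0.28 in replicates 1, 2 and 3. For BNIP3 the KD arrays of replicate 3 lay at 11.37 and 11.78, against 11.41 and 11.18 in control 1, so the arms overlapped within that replicate, and in replicates 1 and 2 both KD arrays were below both control arrays.

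**Figure D3:**
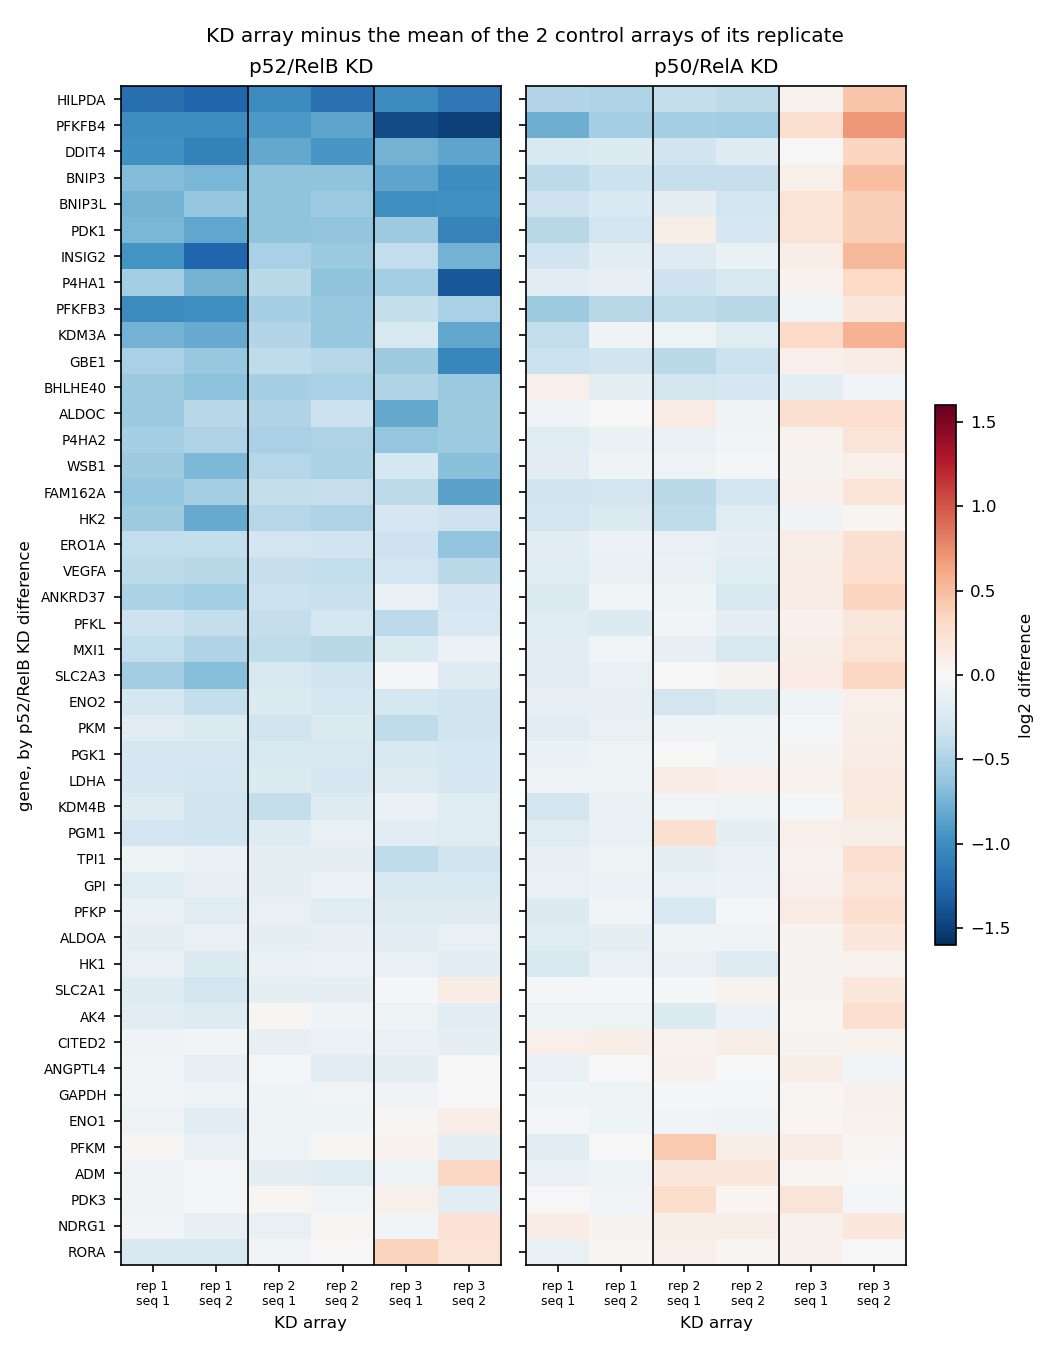
Log2 difference of each KD array from the mean of the 2 control arrays of its replicate, for the 45 genes measured in both experiments, ordered by the p52/RelB KD difference, with red above and blue below control. The p52/RelB KD columns (left) are blue for nearly all of the upper genes in every replicate, and the p50/RelA KD columns (right) are mostly blue in replicates 1 and 2 and mostly red in replicate 3.

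The control arrays also differed between replicates, most of all in the p52/RelB experiment. Of the 47 members, 21 differed between the 3 replicates of control 2 (limma F test over 6 arrays, adjusted p below 0.05), against 8.09% of all clusters, and all 21 were highest in replicate 1. For 18 of these 21 the KD difference had passed too. INSIG2 averaged 9.62, 8.64 and 8.18 in control 2 of replicates 1, 2 and 3, HILPDA 12.24, 11.23 and 10.83, DDIT4 9.70, 8.90 and 8.59 and PFKFB3 9.47, 8.57 and 8.35. For 13 of the 32 members that fell, this range over control replicates was larger than the KD difference. The KD means of HILPDA were 11.00, 10.12 and 9.75. The KD means ordered the replicates as the control means did for 16 of the 21 members, and not for the other 5 (FAM162A, GBE1, MXI1, RORA and SLC2A1). Replicates 1 and 2 of this experiment were scanned in 1 batch and replicate 3 in another. With the scan batch in place of the replicate as a block, 29 members fell.

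Control 1 had a smaller spread of the same kind. None of its 45 members differed between replicates after adjustment (lowest adjusted p = 0.531), against 0.00682% of all clusters. At an unadjusted p below 0.05 there were 12 members, against 1322 of all 14672 clusters. Of the 45, 35 were highest in replicate 1 and 30 lowest in replicate 3. In control 2, 40 of the 47 were highest in replicate 1 and 30 lowest in replicate 3. Over all clusters, 31.6% were highest in replicate 1 of control 1 and 32.0% in replicate 1 of control 2. Averaged over the 45 members, the KD arrays of the p50/RelA experiment deviated from the mean of their experiment by -0.06 and 0.00 (0.0004) in replicate 1, -0.11 and -0.14 in replicate 2 and 0.02 and 0.14 in replicate 3. Control 1 deviated by 0.04 and 0.23 in replicate 1, 0.03 and -0.04 in replicate 2 and -0.03 and -0.09 in replicate 3. On this average the KD arrays were highest in replicate 3 and control 1 in replicate 1.

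**Figure D4:**
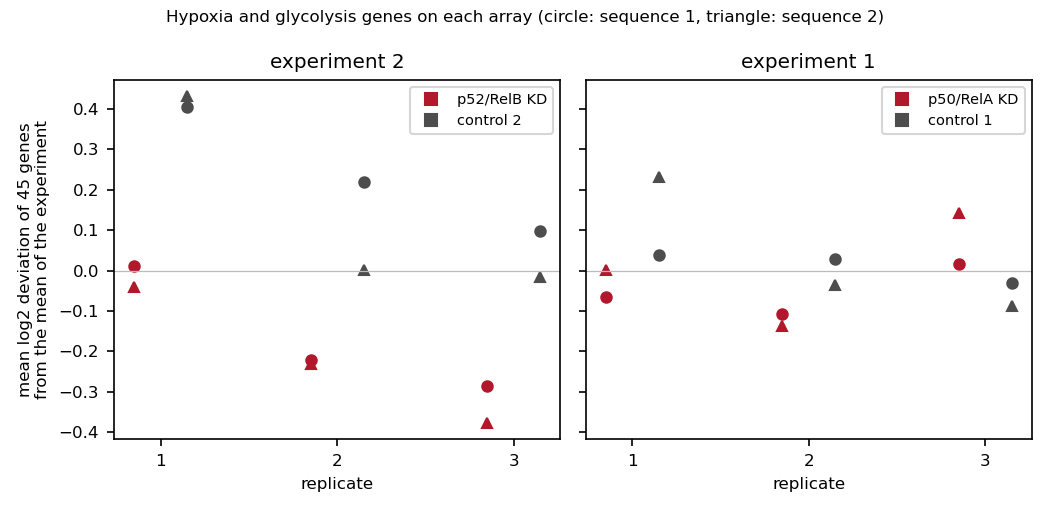
Mean log2 deviation of the 45 genes measured in both experiments from their mean over the 12 arrays of the experiment, on each array, by replicate, with the KD left of its control. The p52/RelB KD arrays lie below control 2 in every replicate, and the p50/RelA KD arrays lie below control 1 in replicates 1 and 2 and above it in replicate 3.

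The 2 KD effects were then set against each other directly, each relative to its own control. Each KD was done in its own experiment, with its own scan batches, so KD and experiment cannot be told apart in this comparison. Of the 45 members, 20 had a lower effect in p52/RelB KD than in p50/RelA KD (limma, adjusted p below 0.05) and 0 a higher one, against 2.45% of all 14647 clusters with a lower effect. The median of the difference between effects was -0.29 over the members and 0.01 over all clusters. The largest was that of HILPDA (-0.93 ± 0.19, adjusted p = 0.00606), followed by PFKFB4 (-0.87 ± 0.23, adjusted p = 0.0318) and DDIT4 (-0.80 ± 0.15, adjusted p = 0.00241). INSIG2, PDK1, BNIP3L, KDM3A, ALDOC, P4HA1, BNIP3, P4HA2, WSB1, BHLHE40, ERO1A, VEGFA, LDHA, PFKL, PGK1, PKM and CITED2 made up the rest. CITED2 had not passed in p52/RelB KD itself. PFKFB3 (-0.38 ± 0.15, adjusted p = 0.18), GBE1 (-0.39 ± 0.12, adjusted p = 0.0548) and HK2 (-0.29 ± 0.09, adjusted p = 0.0631) fell in p52/RelB KD without passing this test. So did FAM162A, ANKRD37, MXI1, ENO2, KDM4B, PGM1, TPI1, GPI, PFKP and ALDOA. The count was 6 without replicate 3 of the p50/RelA experiment, 8 without replicate 1 of the p52/RelB experiment and 7 without the replicate as a block.

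The members that varied most between replicates in p50/RelA KD were those that fell most in p52/RelB KD. Across the 45 genes, the range of the p50/RelA KD difference over replicates and the p52/RelB KD difference had a Pearson's r of -0.84 (Spearman's rho -0.78), and -0.79 (rho -0.75) over 43 genes without PFKFB4 and HILPDA. Over all 14647 clusters measured in both experiments r was -0.07 and rho 0.01. A range has no sign, while the KD difference has one. The p52/RelB KD difference was below 0 for 44 of the 47 members, but among all clusters tested there 5.75% passed downward and 3.93% upward. The values over all clusters are therefore not a like comparison, and whether the relation is particular to the members was not tested. Variation between replicates without KD went the same way across the 45 genes. The range over replicates of control 1 and the p52/RelB KD difference had an r of -0.695 (rho -0.566). The range of the p50/RelA KD difference and the range over replicates of control 2 had an r of 0.593 (rho 0.669). The points share the probes of a gene but no array, since each experiment had its own controls, and genes are not independent replicates. In the single replicates, the p50/RelA KD difference had an r with the p52/RelB KD difference of 0.79 in replicate 1, 0.75 in replicate 2 and -0.60 in replicate 3.

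**Figure D5:**
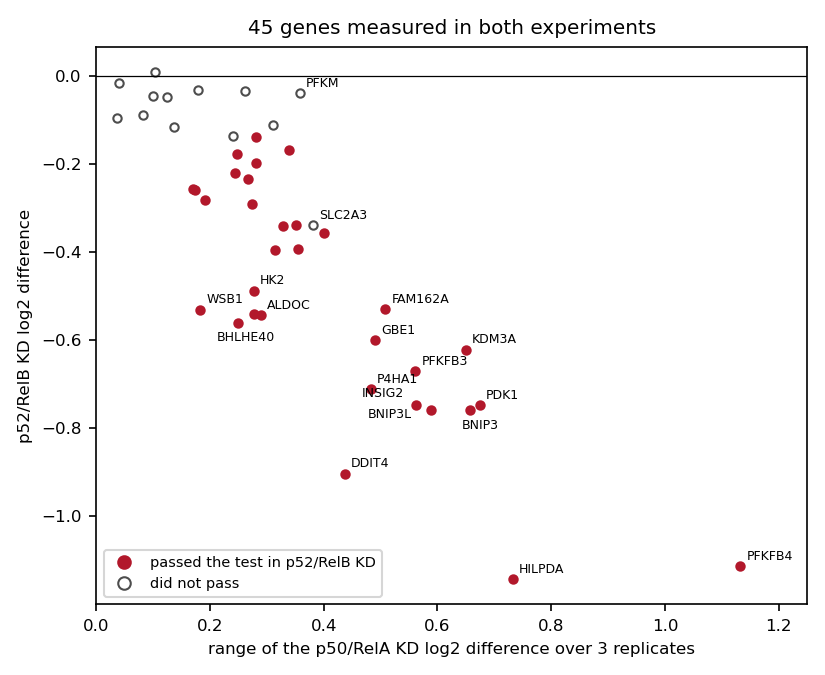
Range of the p50/RelA KD log2 difference over the 3 replicates (horizontal axis) and p52/RelB KD log2 difference (vertical axis) of 45 genes. PFKFB4 and HILPDA lie at the lower right, with a range of 1.13 and 0.73 and a difference of -1.11 and -1.14, and genes that did not pass in p52/RelB KD lie at a range of 0.38 or less.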

How the data were processed

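Per the labels, 24 arrays of L1236 cells formed 2 experiments of 12. The authors deposited log2 values made by RMA (version not given in the sources used here), which corrects background, quantile-normalizes arrays and summarizes probes per transcript cluster. Array medians were 6.94 to 6.99 in the p50/RelA experiment and 7.39 to 7.51 in the p52/RelB experiment, so the experiments were taken as normalized apart. The number of arrays limits the precision, with a median SE of a member's difference of 0.06 (0.062) in p50/RelA KD and 0.05 (0.0533) in p52/RelB KD.

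Genes were named from GEO's platform annotation, with symbols updated through the RefSeq gene table of GRCh38.p14. The table held 33297 clusters: 19460 with 1 symbol were used, and 1754 with several and 12083 not listed were left out. AK4 and TPI1 had 2 clusters each, and the one with the higher mean stood for the gene, with their mean as an alternative. Clusters at 6 or more in at least 7 of the 12 arrays of an experiment were tested with limma (version 3.58.1, functions lmFit and eBayes, R version 4.3.3). The replicate entered as a block, with Benjamini-Hochberg adjustment over all tested clusters and a least difference of 10%, the threshold in the study's methods. Those methods name a plain t-test on values adjusted for covariates that they do not name. The difference between the KD effects was fitted on all 24 arrays, each experiment's replicates being blocks of their own. Variation of the KD effect between replicates, and of control arrays between replicates, was tested by limma's moderated F test.

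Deviations of KD and control means of the same replicate correlated at 0.448, 0.195 and 0.251 in the p50/RelA experiment and 0.574, 0.268 and 0.377 in the p52/RelB experiment, all over 0.1, so replicates were treated as paired. The alternatives were no block, the scan batch as block, leaving out replicates or arrays, 1 siRNA sequence or averaged sequences, quantile normalization, array weights, no filter on low values, adjusted p alone and the methods' t-test. The fits were tested on simulated data. Members and gene lists were chosen with earlier results of these data known. Values on all arrays are given for the 12 members with the largest p52/RelB KD difference among those that passed, any member that passed in p50/RelA KD (none did), the 4 with the widest range over replicates there, and HIF1A.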

Additional observations from a re-analysis of the deposited data

Results flagged for a closer look

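The 2 KD effects differed (limma, 24 arrays, adjusted p below 0.05) for 10 of the 12 members with the largest p52/RelB KD difference, against 2.45% of all clusters with a lower effect in p52/RelB KD. These 12 were chosen by the p52/RelB KD difference, which is one of the terms compared, so the count is a description. KD and experiment cannot be told apart in it. The p52/RelB KD effect minus the p50/RelA KD effect was -0.93 for HILPDA, -0.87 for PFKFB4, -0.80 for DDIT4, -0.72 for INSIG2, -0.70 for PDK1, -0.69 for BNIP3L, -0.64 for KDM3A, -0.62 for P4HA1, -0.60 for BNIP3 and -0.42 for BHLHE40. The highest adjusted p among them was 0.0375, that of KDM3A. No array of these members or of HIF1A stood apart from the other 5 of its arm by Dixon's test, in 52 groups of 6 arrays, where chance would mark about 1 in 20. The 6 arrays of an arm come from 3 replicates that differ in level. This widens the range that the test sets a gap against, so it can miss a deviant array.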

How the results depend on the processing

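In p52/RelB KD, 32 members fell. The count was 20 without the replicate as a block (no pairing), 16 by the methods' t-test on the deposited values and 32 by that t-test on values adjusted for the replicate, between 25 and 33 under the other settings that kept all arrays of both arms or 1 KD sequence, and between 20 (without replicate 1) and 33 when a replicate or an array was left out. No member rose under any of these settings, and the median member difference stayed between -0.32 and -0.27. HILPDA, PFKFB4 and DDIT4, which had the largest differences, were among the members that did not pass by the t-test on the deposited values. That t-test takes no account of the replicate. Testing clusters with several symbols as well, chosen after seeing the data, gave 32. In p50/RelA KD the counts were 0 downward and 0 upward, and between 0 and 1 (GBE1, without replicate 3) when a replicate or an array was left out. The median member difference there was -0.13 without replicate 3 and 0.02 without replicate 1. For the difference between KD effects the count of members was 20, 7 without the replicate as a block and between 6 and 17 when a replicate was left out, the lowest without replicate 3 of the p50/RelA experiment. The KD effect varied between replicates for 0 members in p52/RelB KD and between 0 and 7 when an array was left out, the 7 without the p52/RelB KD array of sequence 1 in replicate 3. The causes were not tested. RMA gives no detection call, and the arrays of an arm share 3 replicates, so the precision is that of few cultures.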
